A study of Mus musculus with 110 samples.

Results

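The genes of the uncoupling proteins, Ucp1, Ucp2 and Ucp3, were followed through the liver and 3 fat depots of mice exposed to dietary methionine restriction, cold or both. They were taken by gene name, as 3 of the 56884 gene rows of the count tables, and no measured value entered the rule. RNA was sequenced from the liver, the interscapular brown fat (iBAT), the inguinal white fat (iWAT) and the epididymal white fat (eWAT) of 28 male wild-type C57BL/6N mice from Taconic, 7 per group. All mice were housed singly, were 16 weeks old at the end and ate a diet with 0% cysteine for 7 days at 22 °C. By the labels the diet held 0.86% methionine in the control groups (Ctrl), for which the methods give a slightly lower figure, and 0.12% in the methionine-restricted groups (MetR). Mice of the groups Ctrl_RT and MetR_RT stayed at 22 °C, whereas mice of Ctrl_CE and MetR_CE then spent 24 h at 4 °C while still on their diet.

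The tables hold 110 libraries with total counts between 6987895 and 33444374 in liver, 12672686 and 31232349 in iBAT, 16607493 and 33141066 in iWAT, and 22021114 and 33372110 in eWAT. The study left out 5 libraries that stood apart in its principal component analysis, and these were also left out here, namely Ctrl_CE replicate 5 of iBAT and Ctrl_RT replicates 2, 4 and 5 and MetR_RT replicate 7 of eWAT. Over the remaining 105 libraries n was 7 in each group, except for 6 in iBAT Ctrl_RT, iBAT Ctrl_CE, iWAT MetR_CE and eWAT MetR_RT and 4 in eWAT Ctrl_RT. For 3 iBAT libraries, replicate 1 of MetR_RT, of Ctrl_CE and of MetR_CE, a treatment tag names another group than the title, and they were placed by title. Defining adipocyte genes (Adipoq, Plin1, Fabp4, Cfd and Lep) summed to between 7819 and 32294 CPM, counts scaled to 1000000 per library, in the fat libraries and hepatocyte genes (Alb, Apoa1, Ttr, Cyp2e1 and Tat) to between 45941 and 84997 CPM in liver. Epididymal epithelium genes reached 1467 CPM in 1 MetR_RT library of eWAT, against medians of 0.331 to 2.85 CPM in the eWAT groups.

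UCP1 is a carrier of the inner mitochondrial membrane in brown and beige adipocytes that lets protons return to the matrix without ATP synthesis, so that the energy of fatty acid oxidation appears as heat. Its gene is induced in the cold by noradrenaline, through β-adrenergic receptors, cyclic AMP and nuclear receptors with their coactivators. UCP2 is found in many cell types, macrophages and lymphocytes among them, and UCP3 in skeletal muscle and brown fat. For both of these, roles in substrate handling and oxidative stress have been proposed, and a role in heat production is less settled.

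In the GRCm38 assembly Ucp1 (ENSMUSG00000031710.5) lies at chr8:83290352-83298452 on the plus strand, with a principal transcript of 1636 bases in 6 exons. Ucp3 (ENSMUSG00000032942.15) and Ucp2 (ENSMUSG00000033685.14) are neighbours on the plus strand of chromosome 7, at chr7:100472990-100486432 and chr7:100493337-100502020, with 6904 bases between the end of Ucp3 and the start of Ucp2. Their principal transcripts hold 2448 bases in 7 exons and 3988 bases in 8 exons. Genes on the opposite strand overlap both, Gm10603 at the 5′ end of Ucp3 and Dnajb13 at the 3′ end of Ucp2, and whether the counting used strand is not given in the sources used here. In the fat depots the counts given to Gm10603 came to between 4.45% and 12.2% of those of Ucp3, and in the 4 tissues those of Dnajb13 to between 1.2% and 3.85% of those of Ucp2.

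The 3 genes moved differently between tissues, so the sequence in front of each is shown for comparison, as the 250 bases before the RefSeq start, 5′ to 3′ on the plus strand of GRCm38.p6. Capitals mark matches, on either strand, to the short form of the cAMP response element (TGACG), to a single nuclear receptor site (AGGTCA) or to a repeat resembling the core promoter box (TATATA). They also mark the binding letters of Sp1-like factors (GGGCGG).
Ucp1, chr8:83290098-83290347: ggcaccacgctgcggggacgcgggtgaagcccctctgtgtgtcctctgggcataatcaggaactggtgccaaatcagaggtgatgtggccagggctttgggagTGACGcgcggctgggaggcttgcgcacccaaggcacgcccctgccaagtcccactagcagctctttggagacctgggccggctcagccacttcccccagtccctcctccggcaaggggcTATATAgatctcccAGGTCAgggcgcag
Ucp2, chr7:100493108-100493357: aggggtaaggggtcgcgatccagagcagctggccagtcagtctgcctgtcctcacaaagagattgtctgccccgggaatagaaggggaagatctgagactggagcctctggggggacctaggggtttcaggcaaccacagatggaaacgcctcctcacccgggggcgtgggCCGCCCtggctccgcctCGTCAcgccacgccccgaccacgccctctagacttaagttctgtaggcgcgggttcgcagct
Ucp3, chr7:100472741-100472990: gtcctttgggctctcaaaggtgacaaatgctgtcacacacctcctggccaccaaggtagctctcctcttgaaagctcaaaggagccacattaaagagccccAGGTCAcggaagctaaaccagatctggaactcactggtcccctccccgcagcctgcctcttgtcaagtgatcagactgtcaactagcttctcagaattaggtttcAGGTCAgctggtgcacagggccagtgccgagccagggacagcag

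The windows of Ucp1 and Ucp2 were richer in G and C, with 64.8% and 63.6%, than that of Ucp3 with 54.8%, against a median of 52.4% over the 32851 promoters in the table. They held 12 and 16 CpG dinucleotides, and that of Ucp3 held 3. TGACG, which 17.8% of all promoters hold on either strand, began at position -147 of Ucp1 and on the reverse strand at -62 of Ucp2. AGGTCA, held by 14%, began at -14 of Ucp1 and stood at 2 places in Ucp3. TATATA, held by 5.25%, began at -28 of Ucp1, and GGGCGG, held by 32.7%, on the reverse strand at -79 of Ucp2. The full element TGACGTCA (1.55% of promoters), TATAAA (12.4%) and CCAAT (33.8%) are not in these windows. TATATA was added to the motifs after the sequences were seen. These are letter matches and say nothing of binding.

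Levels are given as CPM after scaling by edgeR's trimmed mean of M values (TMM). The TMM factors were set within each tissue, so that levels in different tissues were not scaled to each other by them. Differences between groups were tested with edgeR's quasi-likelihood test on the counts of all genes with at least 10 counts over a tissue, and a gene passed where its p, adjusted after Benjamini and Hochberg across every gene of that comparison, was under 0.05. Ctrl_CE, MetR_RT and MetR_CE were each compared with the same Ctrl_RT libraries, so that these comparisons are not independent of each other. The tissues hold several cell types, and fewer cells of a type and less RNA per cell cannot be told apart in them.

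Per kilobase of principal transcript, so that the genes can be set side by side, Ucp1 stood at a median of 4219 CPM in iBAT of Ctrl_RT mice, Ucp3 at 91.9 and Ucp2 at 10.4. In iWAT of Ctrl_RT mice the medians per kilobase were 44.3 for Ucp1, 39.7 for Ucp2 and 33.1 for Ucp3, and in eWAT they were 0.101, 42.7 and 27.2. Before division by length the iWAT medians were 72.4 CPM for Ucp1, 158 for Ucp2 and 80.9 for Ucp3. The order in iWAT thus depends on the transcript lengths used. Brown fat was thus dominated by Ucp1, and in eWAT of Ctrl_RT mice Ucp2 stood highest and Ucp1 near the limit of detection. In MetR_CE mice the iWAT medians per kilobase were 2304 for Ucp1, 19.5 for Ucp2 and 63.9 for Ucp3. In liver the counts held Ucp2, at 6.19 per kilobase in Ctrl_RT, and next to nothing of the other 2 genes.

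**Figure D1:**
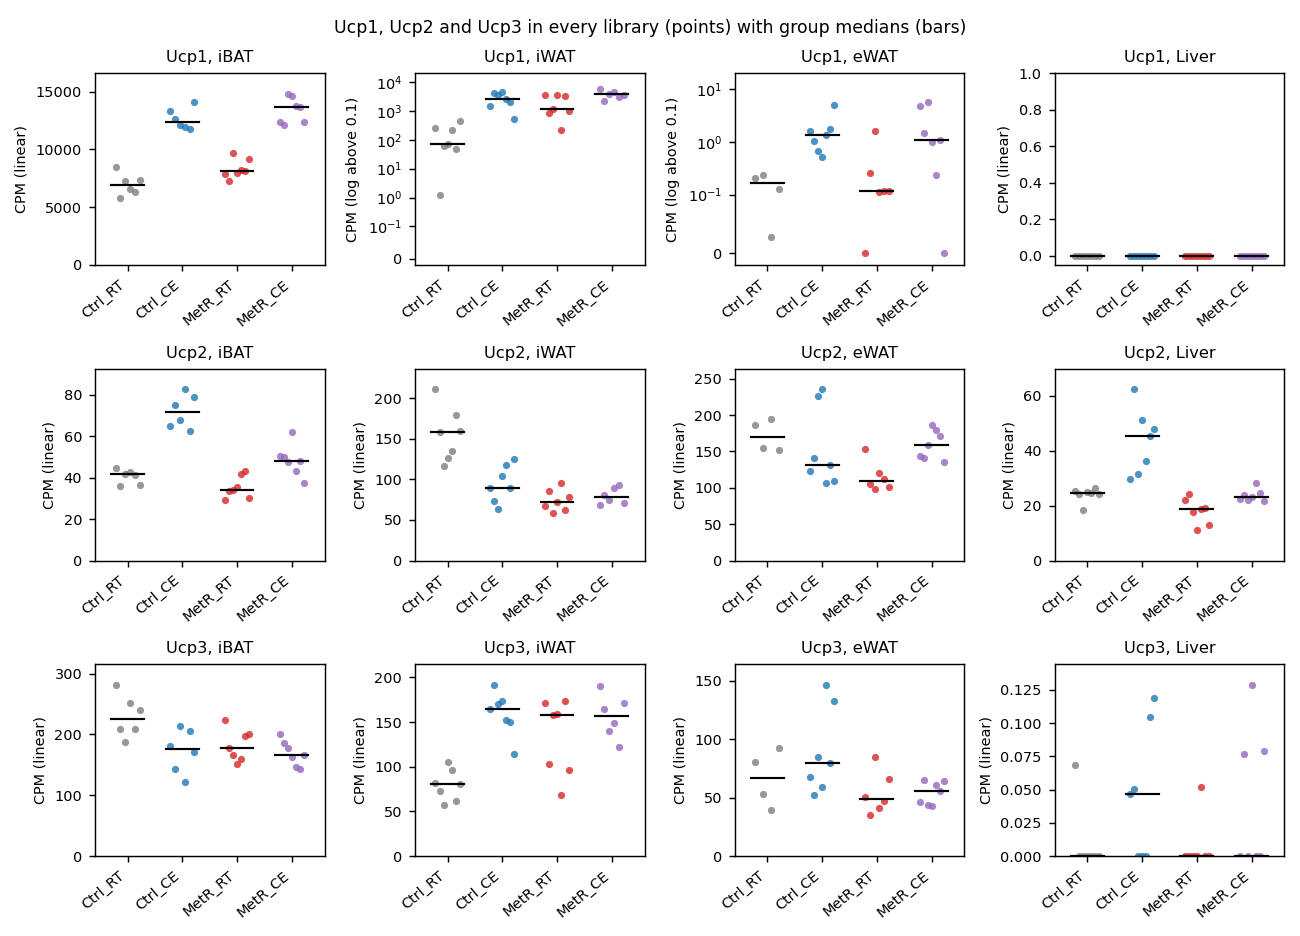
CPM of Ucp1, Ucp2 and Ucp3 (rows) in iBAT, iWAT, eWAT and liver (columns), one point per library, with a bar at each group's median; the axes are linear, except for Ucp1 in iWAT and eWAT, where they are logarithmic above 0.1 CPM. Ucp1 in iWAT runs from 1.27 CPM in a Ctrl_RT library to 5658 CPM in a MetR_CE library, while in iBAT all libraries lie between 5819 and 14813 CPM.

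Ucp1 rose with cold in iBAT from an already high level, and rose far more, relative to where it started, in iWAT with cold, with MetR and with both. In iBAT of Ctrl_RT mice Ucp1 read 5819 CPM at the lowest, 6903 at the median and 8446 at the highest, which is 0.695% of all normalized counts on average. Ctrl_CE libraries lay between 11745 and 14112 CPM with a median of 12383, and MetR_CE libraries between 12111 and 14813 with a median of 13682. No library of either cold group overlapped the Ctrl_RT range or, for MetR_CE, that of MetR_RT, which ran from 7290 through a median of 8162 to 9650 CPM. Only 2 of 7 MetR_RT libraries lay above the highest Ctrl_RT library.

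The fitted log2 fold change of Ucp1 in iBAT was 0.86 ± 0.08 (SE) in Ctrl_CE, a 1.82-fold rise, with an edgeR adjusted p of 1.04e-09, in a comparison where 33.2% of all genes passed in either direction. In MetR_CE it was 0.94 ± 0.08 (1.92-fold, edgeR adjusted p = 1.48e-10), where 33.4% of genes passed. MetR alone moved it by 0.26 ± 0.08 (1.2-fold, edgeR adjusted p = 0.0357), where 6.8% passed. This smallest call was lost without any one of Ctrl_RT replicates 2, 4 and 5 or MetR_RT replicates 3, 5 and 7, with log2 fold changes of 0.21 to 0.26 and adjusted p of 0.0538 to 0.0906, and with the summed level of macrophage markers as a covariate it was 0.12 (adjusted p = 0.582, over the alternatives 0.00277 to 0.582). These sums did not overlap between Ctrl_RT (101 to 168 CPM) and MetR_RT (50.7 to 96.9 CPM), so that this covariate and the group cannot be told apart there. Cold on top of MetR raised Ucp1 by 0.68 (edgeR adjusted p = 4.57e-08, 25.5% of genes passing). MetR_CE and Ctrl_CE differed by 0.08, with a 95% interval from -0.08 to 0.24 (edgeR adjusted p = 0.634), and the interaction of diet and temperature was -0.18 (edgeR adjusted p = 0.528).

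In iWAT the 7 Ctrl_RT libraries ran from 1.27 through a median of 72.4 to 449 CPM of Ucp1, a 352-fold range. The width of this range rests on replicate 2, at 1.27 CPM, and the next lowest library read 47.5 CPM. Ctrl_CE libraries ran from 530 through 2554 to 4481 CPM, MetR_RT libraries from 210 through 1145 to 3598, and MetR_CE libraries from 2173 through 3770 to 5658. All libraries of Ctrl_CE and MetR_CE, and 6 of 7 of MetR_RT, lay above the highest Ctrl_RT library. The spread within a group was smallest in MetR_CE, at 2.6-fold, against 8.45-fold in Ctrl_CE and 17.1-fold in MetR_RT.

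The log2 fold change of Ucp1 in iWAT was 4.08 ± 0.75 in Ctrl_CE, 16.9-fold, with an edgeR adjusted p of 0.000163 (30.8% of genes passing). It was 3.61 ± 0.73 in MetR_RT, 12.2-fold, with an edgeR adjusted p of 0.000683 (22.4% passing), and 4.58 ± 0.77 in MetR_CE, 23.9-fold, with an edgeR adjusted p of 3.15e-05 (37% passing). Without Ctrl_RT replicate 2, the library at 1.27 CPM, these values were 3.86, 3.39 and 4.36. The interaction was -3.11 ± 0.98 (edgeR adjusted p = 0.0757, 2.95% of genes passing), which says that both stimuli together gave less than the sum of their log2 changes without reaching the threshold. It passed with DESeq2 (-3.16, adjusted p = 0.0154) and with edgeR's filterByExpr (-3.14, adjusted p = 0.048), and its adjusted p over the alternatives ran from 0.0154 to 0.152. It also passed without Ctrl_RT replicate 7 (-3.63), MetR_RT replicate 5 (-3.31) or Ctrl_CE replicate 7 (-3.29), with edgeR adjusted p of 0.0411 to 0.0498. Neither MetR_CE against MetR_RT (0.97, 95% interval -0.44 to 2.37) nor MetR_CE against Ctrl_CE (0.50, -0.90 to 1.9) passed, with edgeR adjusted p of 0.446 and 0.754, in comparisons that 5.41% and 3.37% of genes passed.

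Macrophage markers fell in iWAT along with the rise of Ucp1. Of 14 markers, among them Adgre1, Cd68 and Csf1r, 10 were lower and 1 higher in Ctrl_CE, 11 lower and 0 higher in MetR_RT, and 12 lower and 1 higher in MetR_CE, where 30.8%, 22.4% and 37% of all genes passed. The summed level of the markers ran from 1910 to 3249 CPM in Ctrl_RT, 420 to 2222 in Ctrl_CE, 348 to 1497 in MetR_RT and 270 to 669 in MetR_CE. With that sum as a covariate the log2 fold change of Ucp1 was 2.26 in Ctrl_CE, 1.21 in MetR_RT and 1.28 in MetR_CE, none of which passed with edgeR (adjusted p = 0.0557, 0.622 and 0.723). With the summed lymphocyte markers as a covariate it was 2.38, 2.01 and 1.79 (edgeR adjusted p = 0.0582, 0.202 and 0.559). Over all alternatives the adjusted p ran from 2.66e-08 to 0.0582 in Ctrl_CE, 1.68e-06 to 0.622 in MetR_RT and 9.21e-10 to 0.723 in MetR_CE, and only these covariates ended the calls. The macrophage sums of Ctrl_RT did not overlap those of MetR_RT and MetR_CE, so that this covariate and the group cannot be told apart there. The count of all genes passing in MetR_RT fell from 5932 to 12 with the macrophage covariate. The lymphocyte sums of Ctrl_RT did not overlap those of MetR_CE, so that the lymphocyte covariate and the group cannot be told apart in MetR_CE. The defining hepatocyte gene, Alb, read 16.96 to 36.9 CPM in iWAT of Ctrl_RT mice and 30.2 to 96.2 CPM in the other groups, and its part was not tested.

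In eWAT Ucp1 was close to the limit of detection. The 4 Ctrl_RT libraries read 0.202, 0.239, 0.0286 and 0.127 CPM, Ctrl_CE libraries 0.525 to 4.91 with a median of 1.37, MetR_RT libraries 0 to 1.62 with a median of 0.115, and MetR_CE libraries 0 to 5.65 with a median of 1.1. All 7 Ctrl_CE libraries lay above the 4 Ctrl_RT libraries. Alb, the defining hepatocyte gene, read 4.35 to 12.1 CPM in the Ctrl_RT libraries of eWAT and 3.26 to 146 CPM in the other groups, and its part in the eWAT comparisons was not tested. The log2 fold changes of 3.48 ± 1.19 in Ctrl_CE and 3.73 ± 1.2 in MetR_CE did not pass (edgeR adjusted p = 0.0926 and 0.104), in comparisons where 5.27% and 2.7% of genes passed. With all libraries they were 3.47 (edgeR adjusted p = 0.0308) and 3.75 (0.0218), and with DESeq2 3.54 (adjusted p = 0.0075) and 3.76 (0.0058). Their adjusted p over the alternatives ran from 0.0075 to 0.12 and from 0.0058 to 0.175. MetR alone gave 1.28 with an interval from -1.13 to 3.69 (edgeR adjusted p = 0.765). In liver no count of Ucp1 was recorded in any of 28 libraries, which allows a level of up to 0.00677 CPM over all of them, and these limits cover counting error only.

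**Figure D2:**
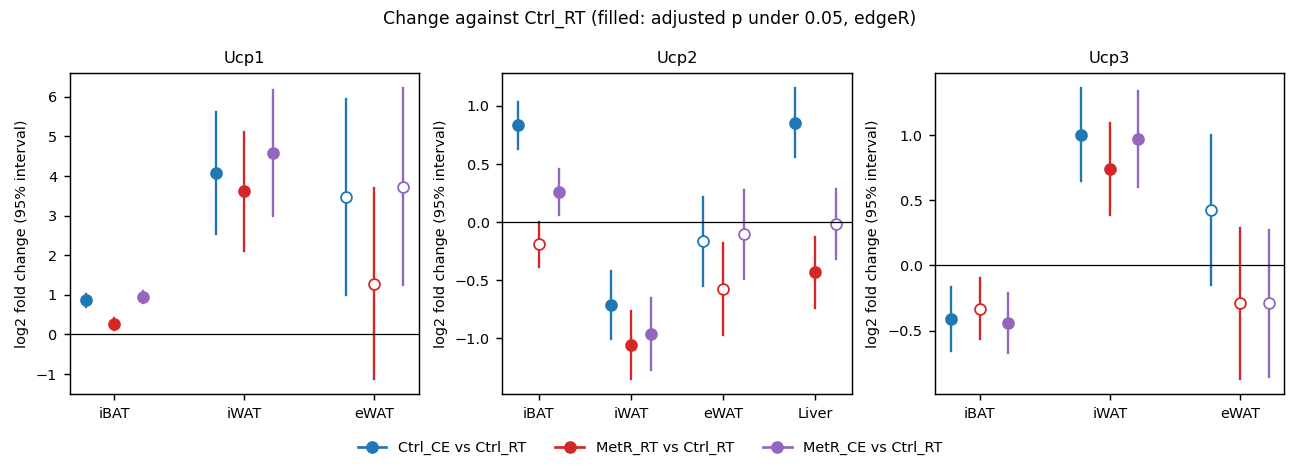
Log2 fold change against Ctrl_RT of Ucp1, Ucp2 and Ucp3 (panels) by tissue, as points with 95% intervals from edgeR for Ctrl_CE, MetR_RT and MetR_CE; filled points have an adjusted p under 0.05. Ucp2 lies above 0 in Ctrl_CE and MetR_CE of iBAT and in Ctrl_CE of liver, but at -0.02 in MetR_CE of liver. In iWAT it lies below 0 in all 3 groups. Ucp3 lies below 0 in iBAT and above 0 in iWAT.

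The induction of Ucp1 brought iWAT to a sizeable part of the brown fat level in the same animal. Mice with libraries of both depots had an iWAT level of 0.0219% to 6.13% of their iBAT level in Ctrl_RT, with a median of 0.982% (n = 6). The median share was 23.4% in Ctrl_CE (3.76% to 37.6%, n = 6), 11.9% in MetR_RT (2.55% to 45.3%, n = 7) and 28.1% in MetR_CE (17.9% to 45.7%, n = 6). The change of log2 CPM against Ctrl_RT was larger in iWAT than in iBAT by 4.39 in Ctrl_CE, 4.32 in MetR_RT and 5.08 in MetR_CE, with adjusted p of 0.0165, 0.0105 and 0.0105 in exact two-sided permutation tests over mice, and 5 of 6, 6 of 7 and 6 of 6 treated mice lay beyond all Ctrl_RT mice. A joint edgeR fit of both depots gave differences of 4.07 ± 0.86, 4.00 ± 0.84 and 4.74 ± 0.85 (edgeR adjusted p = 0.000967, 0.00283 and 0.000129), in tests that 17.9%, 9.23% and 20.1% of genes passed. Across mice within groups, the iWAT level of Ucp1 did not track the iBAT level detectably (r = 0.32, rho = 0.19, permutation adjusted p = 0.346 and 0.473, n = 25, r = 0.25 without the 2 mice farthest from the iBAT median).

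**Figure D3:**
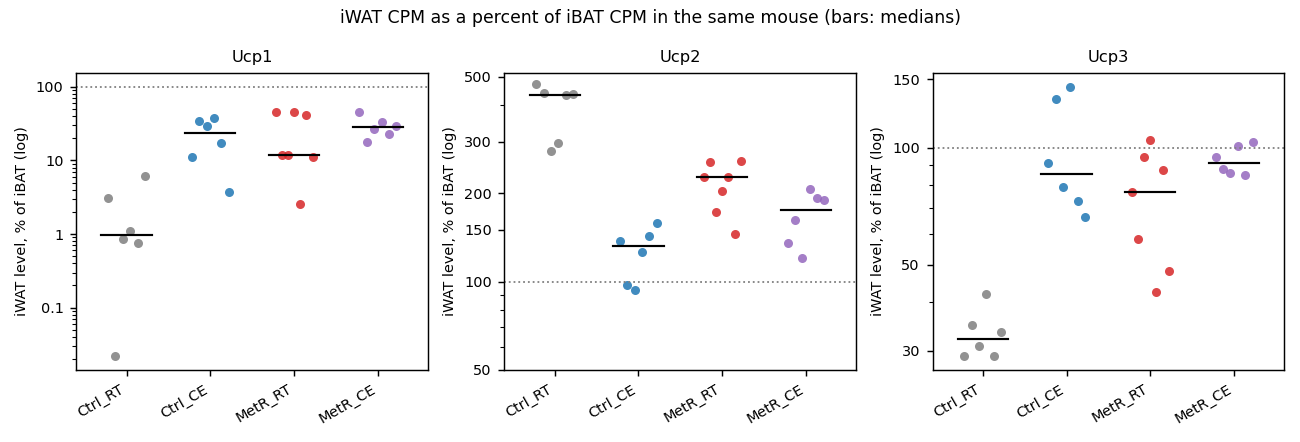
CPM in iWAT as a percent of CPM in iBAT of the same mouse (logarithmic axes) for Ucp1, Ucp2 and Ucp3 by group, one point per mouse with a bar at the median and a dotted line at equal levels. For Ucp1 the medians go from 0.982% in Ctrl_RT to 28.1% in MetR_CE, for Ucp2 from 435% to 176%, and for Ucp3 from 32.2% to 91.3%.

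Ucp2 went in opposite directions in different tissues, up with cold on the control diet in liver and iBAT and down with cold, MetR and both in iWAT. In liver, Ctrl_RT libraries read 18.2 CPM at the lowest, 24.7 at the median and 26.4 at the highest. Ctrl_CE libraries ran from 29.7 through 45.2 to 62.4 CPM, MetR_RT libraries from 10.9 through 18.8 to 24.1, and MetR_CE libraries from 21.5 through 23.1 to 28.4. Cold on the control diet thus raised every library above the Ctrl_RT range, whereas all 7 MetR_CE libraries lay below all Ctrl_CE libraries.

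The log2 fold change of Ucp2 in liver was 0.86 ± 0.15 in Ctrl_CE (1.81-fold, edgeR adjusted p = 4.43e-05), where 28.8% of genes passed. It was -0.43 ± 0.15 in MetR_RT (edgeR adjusted p = 0.0406, 18.8% passing) and -0.02 in MetR_CE, with an interval from -0.32 to 0.28 (edgeR adjusted p = 0.954, 30.3% passing). MetR_CE against Ctrl_CE gave -0.87 ± 0.15 (edgeR adjusted p = 0.000137, 12.1% passing), and cold during MetR gave 0.41 ± 0.15 (edgeR adjusted p = 0.0521, 18% passing). The interaction was -0.44 ± 0.21 (edgeR adjusted p = 0.29, 1.76% passing). The MetR_RT call was lost without any one of Ctrl_RT replicates 1, 2, 4, 5, 6 and 7 or MetR_RT replicates 3, 4 and 7, at log2 fold changes of -0.44 to -0.35 and edgeR adjusted p of 0.0507 to 0.0986.

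In liver the Kupffer cell and macrophage markers moved with Ucp2. Of the 14 markers 11 were higher and 0 lower in Ctrl_CE, with a median log2 fold change of 0.75 against -0.01 over all genes, and 9 were lower and 1, Mrc1, higher in MetR_RT, with a median of -0.72. In MetR_CE 4 were lower and 1 higher. Of all genes in liver 28.8%, 18.8% and 30.3% passed in Ctrl_CE, MetR_RT and MetR_CE. The marker sum ran from 437 to 608 CPM in Ctrl_RT, 411 to 1610 in Ctrl_CE, 231 to 409 in MetR_RT and 393 to 466.2 in MetR_CE. Within groups, Ucp2 followed the sum (r = 0.76, permutation adjusted p = 0.000805, rho = 0.64, permutation adjusted p = 0.0146, n = 28), also without the 2 libraries farthest from its median (r = 0.66). With the sum as a covariate the change of Ucp2 in MetR_RT was -0.083 (edgeR adjusted p = 0.722, over the alternatives 0.0056 to 0.722) and that of MetR_CE against Ctrl_CE was -0.30 (edgeR adjusted p = 0.258, over the alternatives 8.17e-07 to 0.258), while the rise in Ctrl_CE still passed. The marker sums of Ctrl_RT and MetR_RT did not overlap, so that this covariate and the group cannot be told apart in MetR_RT.

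**Figure D4:**
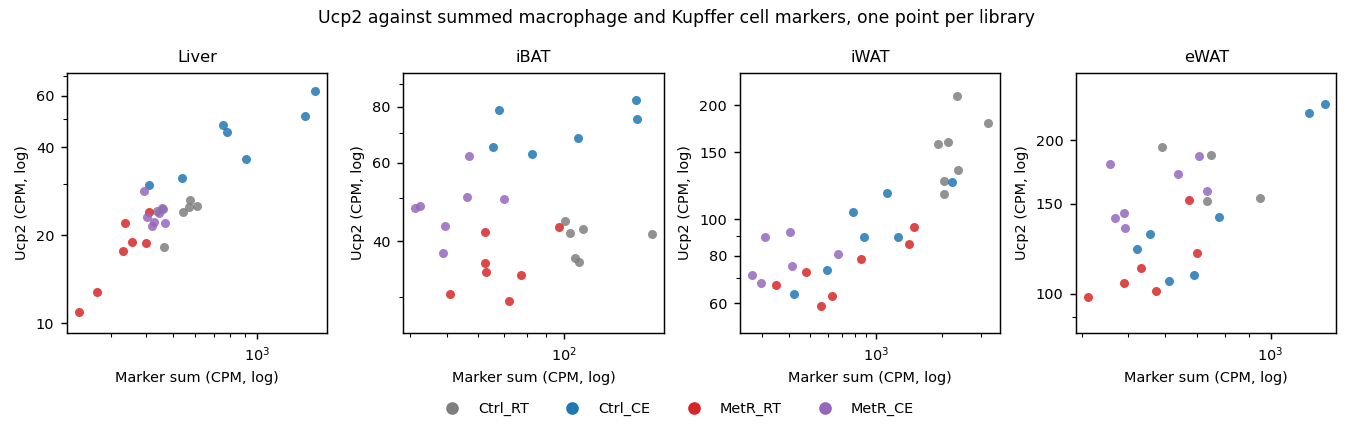
Ucp2 against the summed macrophage and Kupffer cell markers, both in CPM on logarithmic axes, one point per library coloured by group, in liver, iBAT, iWAT and eWAT. Points rise from left to right in liver and iWAT, in iBAT the Ctrl_CE libraries lie above the others at like marker sums, and in eWAT 2 Ctrl_CE libraries stand at the upper right.

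In iBAT, where macrophage markers were far lower, Ucp2 read 36 to 44.5 CPM in Ctrl_RT with a median of 41.6, and 62.6 to 82.7 in Ctrl_CE with a median of 71.7. MetR_RT libraries ran from 29.4 through 34.1 to 43.1 CPM and MetR_CE libraries from 37.6 through 47.8 to 62.1. Every Ctrl_CE library stood above every library of the other groups. The log2 fold change was 0.83 ± 0.10 in Ctrl_CE (1.78-fold, edgeR adjusted p = 9.08e-08), -0.19 ± 0.10 in MetR_RT (edgeR adjusted p = 0.251) and 0.26 ± 0.10 in MetR_CE (edgeR adjusted p = 0.0369). MetR_CE lay below Ctrl_CE by -0.57 ± 0.09 (edgeR adjusted p = 0.000631, 4.78% of genes passing) and above MetR_RT by 0.45 ± 0.09 (edgeR adjusted p = 0.00042), and the interaction was -0.38 ± 0.14 (edgeR adjusted p = 0.19, 0.903% passing).

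The smallest of these calls, MetR_CE against Ctrl_RT in iBAT, was lost without any one of Ctrl_RT replicates 2 and 6 or MetR_CE replicates 1, 2 and 4 (0.19 to 0.25, edgeR adjusted p = 0.0564 to 0.117). Macrophage sums in iBAT ran from 101 to 168 CPM in Ctrl_RT, 65.7 to 154 in Ctrl_CE, 50.7 to 96.9 in MetR_RT and 41.3 to 70.1 in MetR_CE. In Ctrl_CE 1 of 13 markers was higher and 0 lower, where 33.2% of all genes passed. The part of macrophage number in the rise of Ucp2 was not tested. Within groups r of Ucp2 with the marker sum was 0.36 (permutation adjusted p = 0.13, rho = 0.30, permutation adjusted p = 0.243, n = 26, r = 0.26 without 2 libraries). With the sum as a covariate the value of MetR_CE against Ctrl_CE was -0.40 (edgeR adjusted p = 0.112), and when the 3 libraries with a conflicting tag were grouped by that tag it was -0.53 (edgeR adjusted p = 0.12), against 1.63e-06 to 0.12 over all alternatives of that value.

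In iWAT Ucp2 was lowered by each stimulus. Ctrl_RT libraries ran from 117 through 158 to 211 CPM, Ctrl_CE libraries from 63.5 through 89.8 to 125, MetR_RT libraries from 59.0 through 72.5 to 95.2, and MetR_CE libraries from 67.9 through 77.9 to 92.5. All libraries of both MetR groups and 5 of 7 of Ctrl_CE lay below the lowest Ctrl_RT library. The log2 fold change was -0.71 ± 0.14 in Ctrl_CE, -1.06 ± 0.14 in MetR_RT and -0.96 ± 0.15 in MetR_CE, with edgeR adjusted p of 0.000407, 3.17e-05 and 1.2e-05. The interaction was 0.81 ± 0.20 (edgeR adjusted p = 0.0315), that is, both stimuli together lowered Ucp2 by less than the sum of their log2 changes. That call was lost without any one of 10 libraries, Ctrl_RT replicates 1 and 6, MetR_RT replicates 3, 4 and 6, Ctrl_CE replicates 1 and 2 and MetR_CE replicates 2, 4 and 5, with values of 0.72 to 0.81 and edgeR adjusted p of 0.0506 to 0.0649.

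Beside this, the macrophage sums of iWAT given above fell in the same groups, and Ucp2 followed them within groups (r = 0.67, permutation adjusted p = 0.00192, rho = 0.65, permutation adjusted p = 0.00517, n = 27, r = 0.56 without 2 libraries). Ucp2 also followed the lymphocyte markers, such as Cd79a and Cd3e, in iWAT (r = 0.63, permutation adjusted p = 0.0113, rho = 0.54, permutation adjusted p = 0.0365, r = 0.45 without 2 libraries), whose sums ran from 37.2 to 56.4 CPM in Ctrl_RT and from 11.5 to 18.2 in MetR_CE. With the macrophage sum as a covariate the changes of Ucp2 were -0.34, -0.57 and -0.18 in Ctrl_CE, MetR_RT and MetR_CE (edgeR adjusted p = 0.134, 0.12 and 0.814). With the lymphocyte sum they were -0.35 in Ctrl_CE and -0.27 in MetR_CE (edgeR adjusted p = 0.186 and 0.643), and that in MetR_RT still passed. Over the alternatives the adjusted p ran from 2.15e-05 to 0.186 in Ctrl_CE, 2.69e-10 to 0.12 in MetR_RT and 4.22e-09 to 0.814 in MetR_CE. The macrophage sums of Ctrl_RT did not overlap those of either MetR group, nor did its lymphocyte sums overlap those of MetR_CE. These covariates and the group cannot be told apart there.

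In eWAT Ucp2 passed the test in no comparison. The 4 Ctrl_RT libraries read 187, 154, 194 and 152 CPM, Ctrl_CE libraries 106 to 235 with a median of 131, MetR_RT libraries 98.8 to 153 with a median of 109, and MetR_CE libraries 135 to 186 with a median of 159. The largest change was -0.58 ± 0.19 in MetR_RT (edgeR adjusted p = 0.294), a comparison in which 0.148% of genes passed, with 5 of 6 libraries below the lowest Ctrl_RT library. The interaction was 0.64 ± 0.25 (edgeR adjusted p = 0.174, 3.07% passing), and 0.77 without Ctrl_CE replicate 4 (edgeR adjusted p = 0.0443). None of the 14 macrophage markers passed in eWAT against Ctrl_RT, where 5.27%, 0.148% and 2.7% of all genes passed in Ctrl_CE, MetR_RT and MetR_CE. The markers' median log2 fold changes there were 0.08, -0.41 and -0.47. Ucp2 followed the sum of these markers within groups (r = 0.71, permutation adjusted p = 0.0173, rho = 0.58, permutation adjusted p = 0.0365, n = 24), but r was 0.33 without the 2 libraries farthest from the median, so that the relation rests on these. With the lymphocyte markers r was 0.54 (permutation adjusted p = 0.026, rho = 0.41, permutation adjusted p = 0.108, r = 0.66 without 2 libraries).

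The difference of Ucp2 between depots within a mouse narrowed under every treatment. In Ctrl_RT its CPM in iWAT was 279.4% to 474% of that in iBAT with a median of 435%, in Ctrl_CE 93.3% to 158% (median 132%), in MetR_RT 146% to 257.6% (227%) and in MetR_CE 121% to 207% (176%). The change in iBAT exceeded that in iWAT by 1.64, 0.88 and 1.22 on the log2 scale in Ctrl_CE, MetR_RT and MetR_CE (exact permutation adjusted p = 0.0105, 0.00874 and 0.0105), with all mice of each treated group above all Ctrl_RT mice. In the joint edgeR fit the interaction of diet and temperature differed between iWAT and iBAT by 1.3 ± 0.23 (edgeR adjusted p = 0.00289, 1.78% of genes passing). Against liver, the change in iWAT was lower by -1.54, -0.59 and -0.95 (exact permutation adjusted p = 0.00874, 0.0321 and 0.00874), while the rise in iBAT and in liver in Ctrl_CE differed by -0.03 (exact permutation adjusted p = 0.862).

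Ucp3 also split by depot, falling in iBAT and rising in iWAT. In iBAT, Ctrl_RT libraries ran from 187 through 225 to 281.7 CPM, Ctrl_CE libraries from 121 through 176 to 214, MetR_RT libraries from 151 through 177 to 223, and MetR_CE libraries from 143 through 166 to 201. The ranges overlap, with 4 of 6 Ctrl_CE and 6 of 7 MetR_CE libraries below the lowest Ctrl_RT library. The log2 fold change was -0.41 ± 0.12 in Ctrl_CE and -0.44 ± 0.11 in MetR_CE (edgeR adjusted p = 0.00751 and 0.00301). It was -0.33 ± 0.11 in MetR_RT (edgeR adjusted p = 0.076), and this value passed without Ctrl_RT replicate 3 (-0.38), MetR_RT replicate 1 (-0.38) or Ctrl_CE replicate 4 (-0.33), with edgeR adjusted p of 0.0427 to 0.0467. The interaction was 0.30 ± 0.16 (edgeR adjusted p = 0.465).

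In iWAT the Ctrl_RT libraries read 57.7 to 105 CPM of Ucp3 with a median of 80.9. Ctrl_CE libraries ran from 114 through 165 to 192 CPM, MetR_RT libraries from 67.9 through 158 to 173, and MetR_CE libraries from 122 through 156 to 190. All libraries of both cold groups lay above the Ctrl_RT range, and 4 of 7 MetR_RT libraries did. The log2 fold change was 1.01 ± 0.17 in Ctrl_CE (2.01-fold), 0.74 ± 0.17 in MetR_RT (1.67-fold) and 0.97 ± 0.18 in MetR_CE (1.96-fold), with edgeR adjusted p of 9.03e-05, 0.00247 and 9.07e-05. With the macrophage sum as a covariate these were 0.50, 0.073 and 0.00065 (edgeR adjusted p = 0.058, 0.924 and 1). With the lymphocyte sum they were 0.58, 0.32 and 0.22 (edgeR adjusted p = 0.0597, 0.427 and 0.793). As given for Ucp1, the macrophage covariate cannot be told apart from the group in MetR_RT and MetR_CE, nor the lymphocyte covariate in MetR_CE. Over the alternatives the adjusted p ran from 2.42e-07 to 0.0597, 0.000252 to 0.924 and 1.48e-06 to 1.

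The interaction of Ucp3 in iWAT was -0.77 ± 0.25 (edgeR adjusted p = 0.0828, over the alternatives 0.0222 to 0.134). It passed with DESeq2 (-0.80, adjusted p = 0.0222) and, in edgeR, without MetR_RT replicate 5 (-0.88, adjusted p = 0.0225) or Ctrl_CE replicate 7 (-0.84, adjusted p = 0.0424). Ucp3 in MetR_CE differed from Ctrl_CE by -0.03 (95% interval -0.40 to 0.34) and from MetR_RT by 0.23 (-0.13 to 0.60), and neither passed. Within groups, iWAT libraries with more Ucp1 also had more Ucp3 (r = 0.54, permutation adjusted p = 0.0175, rho = 0.62, permutation adjusted p = 0.0146, n = 27, r = 0.64 without 2 libraries), which was not seen in iBAT (r = 0.07, rho = 0.02, permutation adjusted p = 0.757 and 0.917, n = 26).

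As a share of the iBAT level in the same mouse, Ucp3 in iWAT went from 29.1% to 41.9% in Ctrl_RT (median 32.2%) to 66.4% to 143% in Ctrl_CE (85.4%), 42.4% to 105% in MetR_RT (76.8%) and 85.2% to 103% in MetR_CE (91.3%). The change in iBAT was lower than that in iWAT by -1.5, -1.08 and -1.49 on the log2 scale in Ctrl_CE, MetR_RT and MetR_CE (exact permutation adjusted p = 0.0105 for each), and every treated mouse lay below every Ctrl_RT mouse in this difference. The joint edgeR fit gave 1.51 ± 0.20, 1.09 ± 0.19 and 1.53 ± 0.20 for iWAT minus iBAT (edgeR adjusted p = 2.26e-06, 0.000706 and 1.89e-06). The interaction differed by -1.08 ± 0.27 (edgeR adjusted p = 0.0369).

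In eWAT the 4 Ctrl_RT libraries read 80.1, 53.1, 39 and 92.4 CPM of Ucp3, Ctrl_CE libraries 52.3 to 146 with a median of 79.4, MetR_RT libraries 35.1 to 84.9 with a median of 48.6 and MetR_CE libraries 42.7 to 65.3 with a median of 55.2. No change against Ctrl_RT passed, with log2 fold changes of 0.43, -0.29 and -0.29. MetR_CE was lower than Ctrl_CE by -0.72 ± 0.24 (edgeR adjusted p = 0.0495, 11.5% of genes passing), with 3 of 7 libraries below the Ctrl_CE range. This call was lost without any one of 16 of the 24 libraries, at -0.57 to -0.77 and edgeR adjusted p of 0.0521 to 0.128, the highest without Ctrl_CE replicate 5 or 7. The change of Ucp3 in iWAT exceeded that in eWAT by 1.2 in MetR_RT and 1.34 in MetR_CE (exact permutation adjusted p = 0.0321 and 0.0165). Liver held 12 counts of Ucp3 in 28 libraries, with 19 libraries at 0 and none above 0.129 CPM.

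Since Ucp3 is a gene of skeletal muscle, its level was set beside 12 muscle markers, among them Acta1, the actin of muscle fibres, and Myh4, a fast myosin heavy chain. Muscle RNA varied widely between fat libraries. The marker sum ran from 19.8 to 1995 CPM in iBAT and from 28.7 to 23197 CPM in iWAT, and from 30.9 to 462 CPM in eWAT. In iBAT 9 of 26 libraries had 0 counts of Myh4 and read 121 to 251.03 CPM of Ucp3. In iWAT 2 of 27 libraries had none and stood at 57.7 and 192 CPM. In eWAT 22 of 24 libraries had no count of Myh4, the highest count was 1, and Ucp3 read 35.1 to 146 CPM in those 22. Few counts of Myh4 did not mean that muscle markers were absent, since Acta1 read 3.68 to 422 CPM over the eWAT groups.

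In the libraries with the highest muscle sums Ucp3 read 210 CPM in Ctrl_RT replicate 5 of iBAT, 173 CPM in MetR_RT replicate 6 of iWAT and 92.4 CPM in Ctrl_RT replicate 7 of eWAT. The first lay within the range of its group, and the other two were the highest of theirs, while other groups of the same depot reached 192 CPM in iWAT and 146 CPM in eWAT. Within groups the correlation of Ucp3 with the muscle sum was 0.06 in iBAT (rho = 0.07, permutation adjusted p = 0.794 and 0.789, n = 26, r = -0.05 without 2 libraries) and -0.13 in iWAT (rho = -0.12, permutation adjusted p = 0.611 and 0.651, n = 27, r = -0.22 without 2). In eWAT it was 0.42 (permutation adjusted p = 0.147, rho = 0.56, permutation adjusted p = 0.0386, n = 24, r = 0.49 without 2). With the muscle sum as a covariate the change of Ucp3 in iBAT and iWAT kept its direction and its side of the threshold in each comparison with Ctrl_RT. In eWAT the value of MetR_CE against Ctrl_CE became -0.59 (edgeR adjusted p = 0.106, over the alternatives 0.0137 to 0.118).

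**Figure D5:**
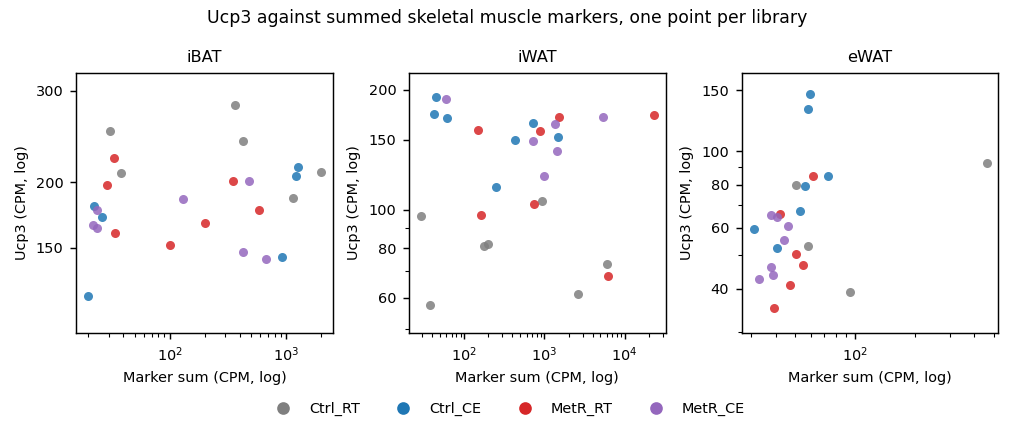
Ucp3 against the summed skeletal muscle markers, both in CPM on logarithmic axes, one point per library coloured by group, in iBAT, iWAT and eWAT. Muscle RNA spans a 101-fold range in iBAT and an 808-fold range in iWAT. Ucp3 lies between 121 and 281.7 CPM in iBAT and between 57.7 and 192 CPM in iWAT.

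Ordered by median, the levels of Ucp1 ran from iBAT MetR_CE and Ctrl_CE, whose ranges overlap, down to iBAT MetR_RT and Ctrl_RT, which overlap each other but not the cold groups. Below a further gap came iWAT MetR_CE, Ctrl_CE, MetR_RT and Ctrl_RT, each overlapping the next, and then the eWAT groups. Ucp2 was highest in eWAT and in iWAT of Ctrl_RT mice and lowest in liver of MetR_RT mice. Neighbours by median did not overlap below iBAT Ctrl_CE and below iBAT MetR_RT, but across the first of these steps iWAT MetR_RT, at 59.0 CPM in its lowest library, reached below the highest libraries of iBAT MetR_CE (62.1) and liver Ctrl_CE (62.4). Ucp3 was highest in iBAT Ctrl_RT, and the 7 highest groups, all those of iBAT and the treated groups of iWAT, formed 1 run of overlapping neighbours. Next by median came iWAT Ctrl_RT, which did not overlap the group just above it but did overlap iWAT MetR_RT, whose lowest library read 67.9 CPM. The eWAT groups followed, and below a gap the liver. These orders across tissues rest on CPM with TMM factors set within each tissue.

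Most genes of a list around Ucp1 transcription were higher in iWAT in each treated group. Of its 25 genes of β-adrenergic signalling and transcription, 14 were higher and 1 lower in iWAT of Ctrl_CE mice, with a median log2 fold change of 0.45 against -0.11 over all genes. MetR_RT had 15 higher and 1 lower (0.41 against -0.03), and MetR_CE had 17 higher and 3 lower (0.77 against -0.08). Of all genes in iWAT 30.8%, 22.4% and 37% passed in Ctrl_CE, MetR_RT and MetR_CE. Dio2, which makes active thyroid hormone, rose by 4.93 ± 0.56, 2.31 ± 0.51 and 5.21 ± 0.57 on the log2 scale in the 3 groups, and the nuclear receptor Esrrg by 2.74 ± 0.46, 2.44 ± 0.46 and 3.47 ± 0.48. Adrb3, the β3-adrenergic receptor of adipocytes, fell in both cold groups, with -0.66 ± 0.20 and -0.67 ± 0.21, and the factor Irf4 in MetR_CE with -1.13 ± 0.36. Smaller changes that passed were those of Nr1h3 (0.29) in Ctrl_CE and of Rxra (0.26) and Zfp516 (-0.30) in MetR_RT.

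In iBAT 11 of the 25 were higher and 5 lower in Ctrl_CE (median 0.15 against -0.08), and 11 higher and 3 lower in MetR_CE (0.16 against -0.10), where 33.2% and 33.4% of all genes passed. The coactivator Ppargc1a rose by 2.44 ± 0.21 and 2.37 ± 0.21 and Dio2 by 1.93 ± 0.25 and 1.76 ± 0.25, while Irf4 fell with -1.34 ± 0.32 and -1.11 ± 0.31 and the thyroid hormone receptor Thrb with -0.46 ± 0.10 and -0.39 ± 0.10. In MetR_RT only Dio2 passed in iBAT, with -0.98 ± 0.24 (edgeR adjusted p = 0.012), in a group in which Ucp1 was 1.2-fold higher and 6.8% of all genes passed. In eWAT 2 were higher and 2 lower in Ctrl_CE, where Dio2 rose by 3.08 ± 0.62 and Pparg, the master regulator of adipocytes, by 0.53 ± 0.14, and Adrb3 and Ebf2 fell with -1.13 ± 0.16 and -0.55 ± 0.11. In MetR_CE 1 was higher, Pparg with 0.56 ± 0.14, and 1 lower, Adrb3 with -0.83 ± 0.16. Of all genes in eWAT 5.27% passed in Ctrl_CE and 2.7% in MetR_CE. None of the 25 passed in eWAT of MetR_RT mice, where with edgeR 41 genes, or 0.148%, passed in all.

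Markers of brown adipocytes, such as Cidea and Cox8b, form a list without Ucp1, which shares Dio2, Ppargc1a and Fabp3 with the other lists. All 10 were higher in iWAT in each of the 3 comparisons with Ctrl_RT, where 30.8%, 22.4% and 37% of all genes passed, with median log2 fold changes of 2.35, 2.10 and 3.06 against -0.11, -0.03 and -0.08, and within groups Ucp1 followed their sum there (r = 0.83, rho = 0.89, permutation adjusted p = 0.00023 for both, n = 27, r = 0.80 without 2 libraries). In iBAT 6 were higher and 1 lower in Ctrl_CE, MetR_RT had 2 higher and 3 lower, MetR_CE had 7 higher and 2 lower, and r was 0.41 (permutation adjusted p = 0.0915, rho = 0.39, permutation adjusted p = 0.132, r = 0.47 without 2). Of all genes in iBAT 33.2%, 6.8% and 33.4% passed in these groups. In eWAT Elovl3 and Dio2 were higher in Ctrl_CE and none of the 10 passed in the other 2 groups, and r was 0.39 (permutation adjusted p = 0.0828, rho = 0.36, permutation adjusted p = 0.155, r = 0.14 without 2). Of all genes in eWAT 5.27%, 0.148% and 2.7% passed in Ctrl_CE, MetR_RT and MetR_CE.

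Fatty acids both fuel UCP1 and activate it, and the genes that bring them to the mitochondrion moved in the same direction as Ucp1 in iWAT. Of 23 such genes 19 were higher in iWAT of Ctrl_CE, 18 in MetR_RT and 21 in MetR_CE, with 0 lower in each, where 30.8%, 22.4% and 37% of all genes passed. Their medians were 0.95, 1.08 and 1.27, against -0.11, -0.03 and -0.08 over all genes. The fatty acid binding protein Fabp3 rose by 4.22 ± 0.81 in Ctrl_CE, 4.22 ± 0.81 in MetR_RT and 5.34 ± 0.86 in MetR_CE, and the very long-chain acyl-CoA synthetase Slc27a2 by 2.79 ± 0.65, 2.84 ± 0.65 and 3.49 ± 0.68. The smallest rises that passed were those of the lipase Lipe, by 0.36, 0.46 and 0.62, of Cpt2 (0.50) in Ctrl_CE, Mgll (0.53) in MetR_RT and Fabp4 (0.35) in MetR_CE. In iBAT 12 were higher and 4 lower in Ctrl_CE, with Cpt1a at 1.80 ± 0.12, Fabp3 at 1.61 ± 0.23, Angptl4 at -0.67 ± 0.17 and Acadm at -0.60 ± 0.06. There 3 were higher and 1 lower in MetR_RT, and 12 and 3 in MetR_CE, where 33.2%, 6.8% and 33.4% of all genes of iBAT passed, with Acsl5 at 1.23 ± 0.08 and Angptl4 at -0.87 ± 0.17. In eWAT 2 were lower in each cold group, Angptl4 (-1.38 ± 0.36) and Pnpla2 (-0.59 ± 0.16) in Ctrl_CE and Slc25a20 (-0.61 ± 0.13) and Acadm (-0.44 ± 0.11) in MetR_CE, where 5.27% and 2.7% of all genes passed. With all libraries of eWAT this turned to 1 higher and 0 lower in Ctrl_CE and 3 higher and 1 lower in MetR_CE.

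Other carriers of the inner membrane, to which the UCPs are related, moved in both directions. Of 7 measured, 4 were higher and 2 lower in iWAT of Ctrl_CE, whereas MetR_RT had 4 higher and 1 lower and MetR_CE had 3 higher and 2 lower, where 30.8%, 22.4% and 37% of all genes passed, and their medians were 0.54, 0.51 and -0.0021. The adenine nucleotide carrier Slc25a5 rose by 0.85 ± 0.12, 0.70 ± 0.12 and 1.09 ± 0.12, and Slc25a30 fell with -0.48 ± 0.13, -0.74 ± 0.13 and -0.63 ± 0.13. In iBAT Slc25a5 rose by 0.64 ± 0.06 in Ctrl_CE and 0.24 ± 0.06 in MetR_RT, and Slc25a27, also named UCP4, stood at -0.61 ± 0.14 in Ctrl_CE. In liver, where Ucp1 and Ucp3 were practically absent, 12 of 23 genes of the transcription list were higher and 3 lower in Ctrl_CE and 12 of 23 of the fatty acid list were higher and 2 lower, where 28.8% of all genes passed, with Esrrg at 1.5 ± 0.23, Ppara at 1.33 ± 0.17, Acot2 at 1.89 ± 0.28 and Cd36 at 1.24 ± 0.17. For these lists in liver MetR_RT had 3 higher and 2 lower and 5 higher and 3 lower (18.8% of all genes passing), and MetR_CE had 11 higher and 2 lower and 13 higher and 1 lower (30.3%).

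The genes most like each member were taken by the correlation of log2 CPM over all libraries of a tissue, among genes with a mean of at least 1 CPM, which includes the differences between groups and is given as a description. In iWAT Ucp1 was most like Otop1 (r = 0.976), Elovl3 (0.965), Slc27a2 (0.963), Cpt1b (0.957) and Clstn3 (0.944) over 27 libraries, and Ucp3 came 631st of 13904 genes (0.824). In iBAT it was most like Otud6b (0.970), 4931406C07Rik (0.969), Ndrg3 (0.967), Canx (0.965) and Smarcd1 (0.960) over 26 libraries.

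Ucp2 in liver was most like Vsig4 (0.944), the complement receptor of Kupffer cells, and Csf1r (0.943), the receptor of a macrophage growth factor, both also in the marker list above, followed by Nckap1l (0.935), Sdc3 (0.925) and Fam129a (0.922) over 28 libraries. In iWAT it was most like the lysosomal gene Ctsa (0.948), then Grn (0.946), Trpv2, Cd300a and Nceh1 (0.934), and in eWAT most like Nhsl2 (0.887), Eln, C5ar2, C5ar1 and Ednrb (0.855). In iBAT its likest genes were others, Cdh13 (0.927), Ddx39, Ckb, Ssr1 and the glucose transporter gene Slc2a4 (0.897). Ucp3 was most like Pdp2 (0.942), Mrps2, 1700021F05Rik, Mcrip2 and Flad1 (0.939) in iWAT, like 9330102E08Rik (0.831), Lta4h, Tmem175, Cenpa and Dcakd (0.806) in iBAT, and like Pikfyve (0.886), Bud31, Tmx2, Pex13 and Sh3tc1 (0.862) in eWAT. Between members the correlation over all iWAT libraries was -0.704 for Ucp1 and Ucp2 and -0.740 for Ucp2 and Ucp3.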

How the data were processed

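RNA-seq libraries of 4 tissues were analysed from the whole-number counts per gene that the authors deposited, which are not normalized. The submitters' notes and methods name STAR 2.7.9a, featureCounts 2.0.3, Salmon 1.9.0, MultiQC 1.19 and DESeq2 1.46.0 with mm10. The deposited tables are named for Salmon, whose estimates need not be whole, so these counts may be rounded estimates. Libraries were poly(A)-selected. All 110 columns were assigned to samples, and groups were taken from titles. Symbols were matched for 51948 of 56884 gene rows. The 3 genes, the lists and the tests were chosen with earlier results of these data known.

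Counts were fitted per tissue with edgeR 4.0.16 (R 4.3.3; TMM, quasi-likelihood, at least 10 counts per gene, diet, temperature and their interaction). Log2 CPM used a prior count of 2. Tissue effects were compared by exact two-sided permutation over mice (45 tests), and 23 correlations of deviations from group means by 100000 permutations within groups, each family with Benjamini-Hochberg adjustment. The libraries that the study left out were identified from its mean normalized counts, from which the chosen subsets deviated by a median of 0.237% in iBAT and 0.152% in eWAT. Per-kilobase values used the longest transcript marked as principal, which for Ucp2, with 11 transcripts annotated, holds 3988 bases. Named genes were the 3 members, of each list the 2 passing genes with the largest and the 2 with the smallest fold change, and the 5 genes most correlated with a member. The genes most correlated with Ucp1 in eWAT are not reported here. In counts simulated for these designs edgeR found 98.5% of genes changed by 1 on the log2 scale in liver and iBAT, 88.1% in iWAT and 82.1% in eWAT. No 2 libraries of a group agreed within sampling noise. P-values measure the spread between mice.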

Additional observations from a re-analysis of the deposited data

Results flagged for a closer look

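Of 40 groups of members by tissue with 4 to 10 libraries, 2 held a library far from its group, by the gap to its nearest neighbour as a share of the group's range (Dixon's criterion, which chance meets in about 1 of 20 groups). These were Ctrl_RT replicate 2 of iWAT, with 1.27 CPM of Ucp1, which stands apart on the log2 scale, and Ctrl_RT replicate 3 of liver, with 18.2 CPM of Ucp2.

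The effect of a treatment differed between tissues, in exact permutation tests over mice adjusted over 45 tests, for 25 of them. These tests were not run over all genes, so that no share of all genes stands beside this count. In the joint edgeR fit of iWAT and iBAT 17.9%, 9.23% and 20.1% of all genes passed in Ctrl_CE, MetR_RT and MetR_CE. For Ucp1 the log2 change in iBAT minus that in iWAT was -4.39 in Ctrl_CE, -4.32 in MetR_RT and -5.08 in MetR_CE, and iBAT minus eWAT was -1.99 in Ctrl_CE. This last value rests on Ctrl_RT libraries of eWAT with 1 to 7 counts of Ucp1, and it was -2.46 with a prior count of 0.5. The eWAT change itself did not pass in Ctrl_CE (edgeR adjusted p = 0.0926).

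For Ucp2 iBAT minus iWAT was 1.64, 0.88 and 1.22 in Ctrl_CE, MetR_RT and MetR_CE, and iBAT minus eWAT was 0.96 in Ctrl_CE and 0.33 in MetR_CE. The value of iWAT minus eWAT was -0.58 in MetR_RT and -0.94 in MetR_CE. The value of iWAT minus liver was -1.54, -0.59 and -0.95 in Ctrl_CE, MetR_RT and MetR_CE, and eWAT minus liver was -1.08 in Ctrl_CE.

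For Ucp3 iBAT minus iWAT was -1.5, -1.08 and -1.49 in Ctrl_CE, MetR_RT and MetR_CE, iBAT minus eWAT was -0.69 in Ctrl_CE, and iWAT minus eWAT was 1.2 in MetR_RT and 1.34 in MetR_CE. The other 4 of the 25 set Ucp3 against liver, where it was near 0 counts, with iBAT minus liver at -0.78 in Ctrl_CE and -0.68 in MetR_CE and iWAT minus liver at 0.71 and 0.68. With a prior count of 0.5 only the first of these 4 passed (exact permutation adjusted p = 0.0487). All of these comparisons share the Ctrl_RT mice.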

How the results depend on the processing

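Under other settings 564 values kept their direction and their side of the threshold, 37 fell short of it, 17 passed it anew and 11 changed sign, and with 1 library left out these counts were 1186, 46, 9 and 5. Values below are log2 differences with edgeR adjusted p in parentheses where given, and the cause of a change was not tested. With DESeq2, Ucp1 had an interaction of -3.16 in iWAT and changes of 3.54 (Ctrl_CE) and 3.76 (MetR_CE) in eWAT, and Ucp3 an interaction of -0.80 in iWAT, all past the threshold, as was the Ucp1 interaction with filterByExpr (-3.14). With all libraries, eWAT gave 3.47 and 3.75 for Ucp1, 0.067 for Ucp2 in MetR_CE and -0.70 for Ucp3 in MetR_CE against Ctrl_CE (0.118), Ucp1 in iWAT minus eWAT became 4.08 in MetR_RT and 3.72 in MetR_CE, Ucp2 in iBAT minus eWAT became 0.19 in MetR_CE, and r became 0.047 for Ucp1 between eWAT and iWAT, 0.42 for Ucp1 with brown markers and 0.50 for Ucp3 with muscle markers in eWAT. Library totals without TMM gave 0.21 for Ucp2 in iBAT minus eWAT. Grouping iBAT by tag gave for Ucp2 -0.53 (MetR_CE against Ctrl_CE), 0.31 (MetR_CE), 0.24 (MetR_CE against MetR_RT) and 0.062 (MetR_RT), and for Ucp3 -0.37 in MetR_RT. Without the 3 libraries with such a tag these were 0.25 for Ucp2 in MetR_CE and -0.38 for Ucp3 in MetR_RT. The lymphocyte covariate gave in iWAT 2.38, 2.01 and 1.79 for Ucp1 in Ctrl_CE, MetR_RT and MetR_CE, -0.59 and -0.21 for MetR_CE against Ctrl_CE and MetR_RT, -0.35 and -0.27 for Ucp2 in Ctrl_CE and MetR_CE, 0.58, 0.32 and 0.22 for Ucp3, and -0.70 for Ucp3 in eWAT, MetR_CE against Ctrl_CE. The macrophage covariate gave in liver for Ucp2 -0.30 (MetR_CE against Ctrl_CE), 0.14 (MetR_CE) and -0.083 (MetR_RT), in iBAT -0.10 and 0.12 for Ucp1 in MetR_CE against Ctrl_CE and in MetR_RT and -0.40 for Ucp2 in MetR_CE against Ctrl_CE. In iWAT it gave for Ucp1 2.26, 1.21 and 1.28 and -0.98 for MetR_CE against Ctrl_CE, for Ucp2 -0.34, -0.57 and -0.18, for Ucp3 0.50, 0.073 and 0.00065, and in eWAT for Ucp2 0.12 in MetR_CE and an interaction of 0.73. The muscle covariate gave -0.41 for Ucp2 in liver and MetR_RT, 0.23 in iBAT and MetR_CE, and for Ucp3 in eWAT -0.59 (MetR_CE against Ctrl_CE), 0.13 (MetR_CE) and 0.039 (MetR_RT). No filter gave -0.72 for Ucp3 in eWAT, MetR_CE against Ctrl_CE (0.0613). Fitting only the groups compared gave 0.27 for Ucp1 in iBAT of MetR_RT and 3.47 in eWAT of Ctrl_CE, and leaving out the libraries rich in muscle RNA 0.23 for the former and 0.78 for the Ucp2 interaction in iWAT. With 1 library left out, Ucp1 in MetR_RT ran from 0.21 to 0.32 in iBAT and from -0.29 to 1.61 in eWAT, where MetR_RT replicate 3 decided the sign, with interactions of -1.55 to 0.54 in eWAT and -3.63 to -2.89 in iWAT. Ucp2 ran from -0.52 to -0.35 in liver of MetR_RT, -0.070 to 0.0080 in liver of MetR_CE and 0.19 to 0.31 in iBAT of MetR_CE, with interactions of 0.72 to 0.89 in iWAT and 0.55 to 0.77 in eWAT. Ucp3 ran from -0.38 to -0.26 in iBAT of MetR_RT and -0.81 to -0.57 in eWAT, MetR_CE against Ctrl_CE, with an interaction of -0.88 to -0.70 in iWAT.

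Replicate numbers were not found to pair the libraries, since deviations of same-numbered libraries correlated above 0.1 for 5 of 42 pairs in liver, 16 of 36 in iBAT, 20 of 39 in iWAT and 15 of 30 in eWAT, and 2 of 28, 5 of 26, 5 of 27 and 6 of 24 libraries correlated best with their own number. With the replicate block Ucp3 in iBAT of MetR_RT was -0.35, Ucp1 in eWAT of Ctrl_CE 4.32 and Ucp3 in eWAT, MetR_CE against Ctrl_CE, -0.64, and no other call on the 3 genes changed. The count of genes passing in eWAT went from 41 to 63 in MetR_RT, 62 to 21 in MetR_CE against MetR_RT and 853 to 1288 for the interaction. Depth limited Ucp1 in eWAT and liver and Ucp3 in liver, where counts were few or 0.

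Counts of all genes passing moved by over 1.5 times under some settings. The interaction count went from 389 in liver to between 158 (lymphocyte covariate) and 880 (DESeq2), from 216 in iBAT to between 1 (grouped by tag) and 740 (DESeq2), from 780 in iWAT to between 455 (without the library rich in muscle RNA) and 2080 (DESeq2), and from 853 in eWAT to between 2 (all libraries) and 1925 (DESeq2). In iWAT the macrophage and lymphocyte covariates took it from 8145 to 2324 and 1931 in Ctrl_CE, 5932 to 12 and 569 in MetR_RT, 9786 to 71 and 126 in MetR_CE, 890 to 73 and 38 in MetR_CE against Ctrl_CE and 1431 to 314 and 138 in MetR_CE against MetR_RT, where DESeq2 gave 1795 and 2706 for the last pair. The macrophage covariate took it from 2682 to 623 in liver, MetR_CE against Ctrl_CE, and in iBAT from 1626 to 341 in MetR_RT and 7998 to 3433 in MetR_CE. In iBAT, MetR_CE against Ctrl_CE, the count was 1143, with DESeq2 1753 and grouped by tag 5, with 6093 against 3126 by tag in MetR_CE against MetR_RT. In eWAT all libraries took it from 1463 to 3821 in Ctrl_CE, 749 to 4321 in MetR_CE, 3187 to 1433 in MetR_CE against Ctrl_CE, 41 to 6 in MetR_RT and 62 to 20 in MetR_CE against MetR_RT, and DESeq2 gave 2631 in Ctrl_CE, 1582 in MetR_CE and 565 in MetR_CE against MetR_RT. List counts without doubted libraries were added after seeing the data. For the Ucp1 transcription list they were 9 higher and 3 lower in Ctrl_CE and 12 and 2 in MetR_CE in iBAT without the 3 libraries of conflicting tag, 10 and 4 in Ctrl_CE without the library rich in muscle RNA, and in eWAT with all libraries 4 and 1 in Ctrl_CE and 4 and 0 in MetR_CE. With all libraries of eWAT the fatty acid list had 1 higher and 0 lower in Ctrl_CE and 3 and 1 in MetR_CE, and the carriers 3 and 0 in Ctrl_CE.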
